A study of Mus musculus with 6 samples.

Results

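The genes described here encode proteins of the primary, or azurophil, granules of neutrophil precursors, plus a membrane marker of the same stage. They are Mpo, Elane, Prtn3, Ctsg, Ms4a3 and Prss57, 6 of the 30406 genes listed in all 6 matrices of the series. The members were chosen by symbol, and all 6 symbols and identifiers matched in every library. They were measured by 3′ single-cell RNA sequencing in droplets, in bone marrow of leukaemic mice, with 1 library per group. The leukaemias were driven by Hoxa9 and Meis1 (HM) or by the MLL-AF9 fusion (MA9), and carry Ptpn6, the gene of the tyrosine phosphatase Shp-1, either floxed (f/f) or deleted (Δ/Δ). The groups are HM f/f with AraC + Dox (cytarabine and doxorubicin chemotherapy), HM f/f with PBS, MA9 Δ/Δ with AraC + Dox, MA9 f/f with AraC + Dox, MA9 Δ/Δ with PBS and MA9 f/f with PBS. Animal age, the number of animals per library, the drug doses and what drives the deletion were not given in the sources used here. Per the labels' protocols, the driver genes were brought in by transfection of embryonic stem cells, and red cells of the flushed marrow were lysed before capture.

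Neutrophil granules are filled in sequence as the cell matures. Primary granules form at the promyelocyte stage, and transcription of their cargo stops before the secondary and tertiary granules are made. Mpo encodes myeloperoxidase, a haem enzyme that makes hypochlorous acid. Elane (neutrophil elastase), Prtn3 (proteinase 3), Ctsg (cathepsin G) and Prss57 (neutrophil serine protease 4) encode serine proteases that are stored in the granule. Ms4a3 encodes a membrane protein that marks granulocyte-monocyte progenitors. Monocyte precursors also transcribe several of these genes.

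Elane, Prtn3 and Prss57 lie in 1 cluster on mouse chromosome 10, while the others are on chromosomes of their own. In GRCm38, Prtn3 spans chr10:79874476-79883174 and Elane spans chr10:79886247-79888215, both on the plus strand with 3072 bases between them. Prss57 lies 83.5 kb from Prtn3 at chr10:79781474-79790961 on the minus strand. Mpo is at chr11:87793581-87804413 on the plus strand, Ctsg at chr14:56099881-56102574 and Ms4a3 at chr19:11629496-11640851, both on the minus strand. The 250 bases before the RefSeq start of 4 members (GRCm38.p6) are shown because Mpo and Ctsg, and Elane and Prtn3, are the pairs whose levels are set against each other below. The RefSeq starts of Mpo, Elane and Prtn3 lie inside the spans given above, so these windows overlap the annotated genes. Capitals mark matches, on either strand, to AGGAAG (an ETS core such as PU.1 binds), AACTG (MYB) and TGTGGT (RUNX); the sequences read 5′ to 3′ on the gene's strand.
Mpo, chr11:87793534-87793783: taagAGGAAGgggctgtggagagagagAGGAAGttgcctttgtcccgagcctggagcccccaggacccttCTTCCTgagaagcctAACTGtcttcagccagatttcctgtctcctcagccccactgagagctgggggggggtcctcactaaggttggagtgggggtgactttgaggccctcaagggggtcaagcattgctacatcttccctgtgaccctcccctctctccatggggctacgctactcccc
Ctsg, chr14:56102575-56102824: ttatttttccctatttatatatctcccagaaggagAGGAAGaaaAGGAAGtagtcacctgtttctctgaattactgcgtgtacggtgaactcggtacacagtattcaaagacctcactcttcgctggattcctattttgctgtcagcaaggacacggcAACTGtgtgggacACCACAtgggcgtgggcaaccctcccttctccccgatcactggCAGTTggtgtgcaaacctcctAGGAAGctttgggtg
Elane, chr10:79886062-79886311: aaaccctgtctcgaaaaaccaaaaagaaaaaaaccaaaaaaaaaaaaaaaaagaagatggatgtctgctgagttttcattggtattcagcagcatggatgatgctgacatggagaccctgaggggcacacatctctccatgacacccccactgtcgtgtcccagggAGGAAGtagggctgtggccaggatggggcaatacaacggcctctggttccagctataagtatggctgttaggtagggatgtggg
Prtn3, chr10:79879417-79879666: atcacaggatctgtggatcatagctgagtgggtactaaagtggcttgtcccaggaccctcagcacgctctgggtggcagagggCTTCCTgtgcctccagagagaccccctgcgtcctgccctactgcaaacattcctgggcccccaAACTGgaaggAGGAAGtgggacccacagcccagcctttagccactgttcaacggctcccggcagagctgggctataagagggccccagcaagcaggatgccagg
RefSeq promoters were matched for 5 members, and all 5 held the ETS letters, which 29.5% of 32851 mouse promoters of the same length hold. The MYB letters stood in Mpo, Prtn3 and Ctsg (39.1% of promoters) and the RUNX letters in Ctsg (14.0%). The C/EBP pattern TTGCNNAA, searched on both strands, stood in none of the 5 (9.56% of promoters). No match overlapped another. A match is a description of letters and not of binding.

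Ptpn6 was read first, as the check of the labels. It was at 113 CPM (UMIs scaled to a fixed library total) in HM AraC + Dox, 135 in HM PBS, 43.7 in MA9 Δ/Δ AraC + Dox, 57.7 in MA9 f/f AraC + Dox, 172 in MA9 Δ/Δ PBS and 186 in MA9 f/f PBS. Within each labelled treatment it was lower in MA9 Δ/Δ than in MA9 f/f. The log2 ratio was -0.11 (interval -0.15 to -0.08) under PBS and -0.40 (-0.46 to -0.34) under AraC + Dox. Across treatments, MA9 Δ/Δ PBS lay above MA9 f/f AraC + Dox. If the deletion lowers these counts, those 2 libraries go against their labels when set against each other. Every MA9 group below is the library labelled so. Ptpn6 was also lower in the MA9 libraries labelled AraC + Dox than in those labelled PBS (log2 ratio -1.69 in f/f, -1.97 in Δ/Δ). An exchange of labels and a lower level under chemotherapy cannot be told apart here. Which exons were deleted was not stated, and 3′ reads from beyond them would be no check of the deletion. If those 2 labels were exchanged, the pairs labelled by deletion would compare chemotherapy and the pairs labelled by chemotherapy would compare deletion. The pair MA9 Δ/Δ AraC + Dox with MA9 f/f PBS contains neither of these libraries. After filtering, libraries held between 2726 cells (HM PBS) and 9180 cells (MA9 Δ/Δ AraC + Dox), with median depths of 3991.5 to 9954 UMIs per cell. HM PBS kept 22.1% of its barcodes, because 74.7% exceeded 10% mitochondrial UMIs. Kept barcodes shared between any 2 libraries numbered 0 to 25, at most 0.28% of the smaller library. With 1 library per group no difference between groups was tested, and intervals (exact, 95%) cover counting error only.

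The 6 genes together made up 1.99% of all UMIs in MA9 Δ/Δ AraC + Dox, 1.23% in MA9 f/f AraC + Dox, 1.19% in MA9 Δ/Δ PBS and 0.904% in MA9 f/f PBS. In HM AraC + Dox they made up 0.453%, against 0.218% in HM PBS. All 4 MA9 libraries lay above both HM libraries for each of the 6 genes. UMIs count 3′ ends and were not divided by length, so levels are compared within a gene and not between genes.

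Mpo was at 620 CPM in HM AraC + Dox, 223 in HM PBS, 4334 in MA9 Δ/Δ AraC + Dox, 1443 in MA9 f/f AraC + Dox, 2742 in MA9 Δ/Δ PBS and 1646 in MA9 f/f PBS. Ctsg was at 946, 236, 3644, 1198, 2186 and 1069.6 CPM in the same order of libraries. For both genes the MA9 libraries labelled Δ/Δ were the highest 2 of the 6, and the MA9 libraries labelled f/f followed.

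Elane was at 934 CPM in HM AraC + Dox, 661 in HM PBS, 5135 in MA9 Δ/Δ AraC + Dox, 4632 in MA9 f/f AraC + Dox, 2784 in MA9 Δ/Δ PBS and 3018 in MA9 f/f PBS. Prtn3 was at 1649.5, 895 and then 5665, 4361, 3442 and 2732 CPM in the same order. For these neighbouring genes the MA9 libraries labelled AraC + Dox were the highest 2 of the 6, a different order from that of Mpo and Ctsg.

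Ms4a3 was at 336 CPM in HM AraC + Dox, 131 in HM PBS, 939 in MA9 Δ/Δ AraC + Dox, 460.1 in MA9 f/f AraC + Dox, 562 in MA9 Δ/Δ PBS and 432 in MA9 f/f PBS. Its order of libraries was that of Ctsg. Prss57 was at 49.5, 36.8, 194, 181, 162 and 145 CPM in the same order of libraries, and its MA9 libraries stood within a factor of 1.34 of each other. For each of the 6 genes, the counting intervals of neighbouring libraries in the order did not overlap, but no spread between replicate libraries is known.

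**Figure D1:**
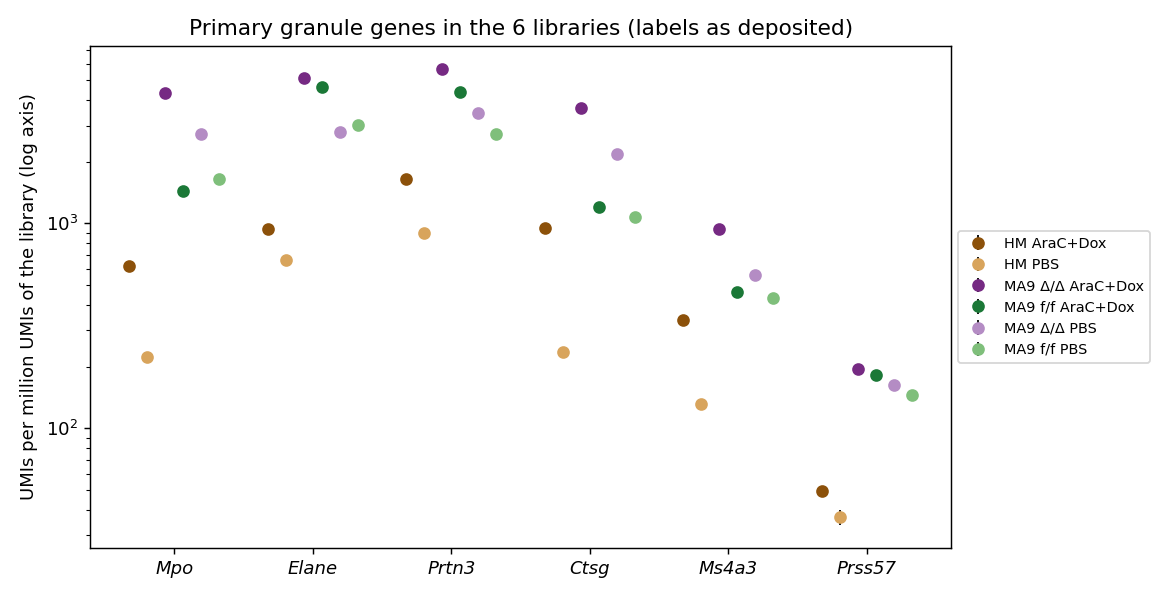
CPM (log axis) for each primary granule gene in the 6 libraries as labelled, with exact 95% counting intervals, which are mostly smaller than the points. Mpo and Ctsg separate the MA9 libraries labelled Δ/Δ from those labelled f/f, whereas Elane separates the MA9 libraries labelled AraC + Dox from those labelled PBS.

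The MA9 libraries were compared by labelled genotype and by labelled treatment. Under PBS, only Ctsg was past 2-fold in MA9 Δ/Δ over MA9 f/f, by a log2 ratio of 1.03 (interval 1.02 to 1.04); 3.81% of the 6138 genes compared were at least 2-fold higher. The log2 ratio of Mpo was 0.74, that of Ms4a3 0.38, of Prtn3 0.33, of Prss57 0.17 and of Elane -0.12. Scaling by the median of gene ratios lowers all log2 ratios of this pair by 0.14, and Ctsg then falls short of 2-fold at 0.89.

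Under AraC + Dox, 3 of the 6 genes were at least 2-fold higher in MA9 Δ/Δ than in MA9 f/f, against 5.48% of the 6054 genes compared. They were Ctsg, at a log2 ratio of 1.60 (interval 1.59 to 1.61), Mpo, at 1.59 (1.58 to 1.60), and Ms4a3, at 1.03 (1.01 to 1.05). Prtn3 had 0.38, Elane 0.15 and Prss57 0.10. Elane and Prss57 thus stayed near equal in the libraries in which Mpo and Ctsg were past 2-fold. The sign of Elane and Prss57 turned when every cell was given equal weight (-0.11 for each), and that of Prss57 also when abundant genes were left out of the total (-0.0017). Ms4a3 fell short of 2-fold under both alternatives, at 0.80 with equal weights and 0.93 with abundant genes left out, which leaves 2 of 6 genes.

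In the pairs labelled by chemotherapy, no member was at least 2-fold apart in either MA9 genotype, where 0.382% (f/f) and 0.765% (Δ/Δ) of genes were at least 2-fold higher. Between MA9 f/f AraC + Dox and MA9 f/f PBS, Prtn3 had a log2 ratio of 0.67, Elane of 0.62 and Prss57 of 0.33, whereas Ctsg had 0.16, Ms4a3 0.09 and Mpo -0.19. Between MA9 Δ/Δ AraC + Dox and MA9 Δ/Δ PBS all 6 were positive, from 0.26 for Prss57 to 0.88 for Elane. The median over the 6 was 0.73 in that pair and 0.24 in the f/f pair, beside medians over all genes of -0.055 and 0.043. These pairs share libraries with the pairs labelled by deletion, so the 4 sets of values are not independent.

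The pair MA9 Δ/Δ AraC + Dox over MA9 f/f PBS holds neither of the 2 libraries whose labels are in question. In this pair 4 of the 6 genes were at least 2-fold higher, against 5.04% of 6095 genes. Log2 ratios were 1.77 for Ctsg, 1.40 for Mpo, 1.12 for Ms4a3 and 1.05 for Prtn3, while Elane had 0.77 and Prss57 0.42. Leaving abundant genes out of the total left 2 past 2-fold, Ctsg and Mpo. Prtn3 also fell short under median-of-ratios scaling (0.99) and with cells weighted equally (0.98), which leaves 3. Deletion and chemotherapy cannot be told apart in this pair.

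**Figure D2:**
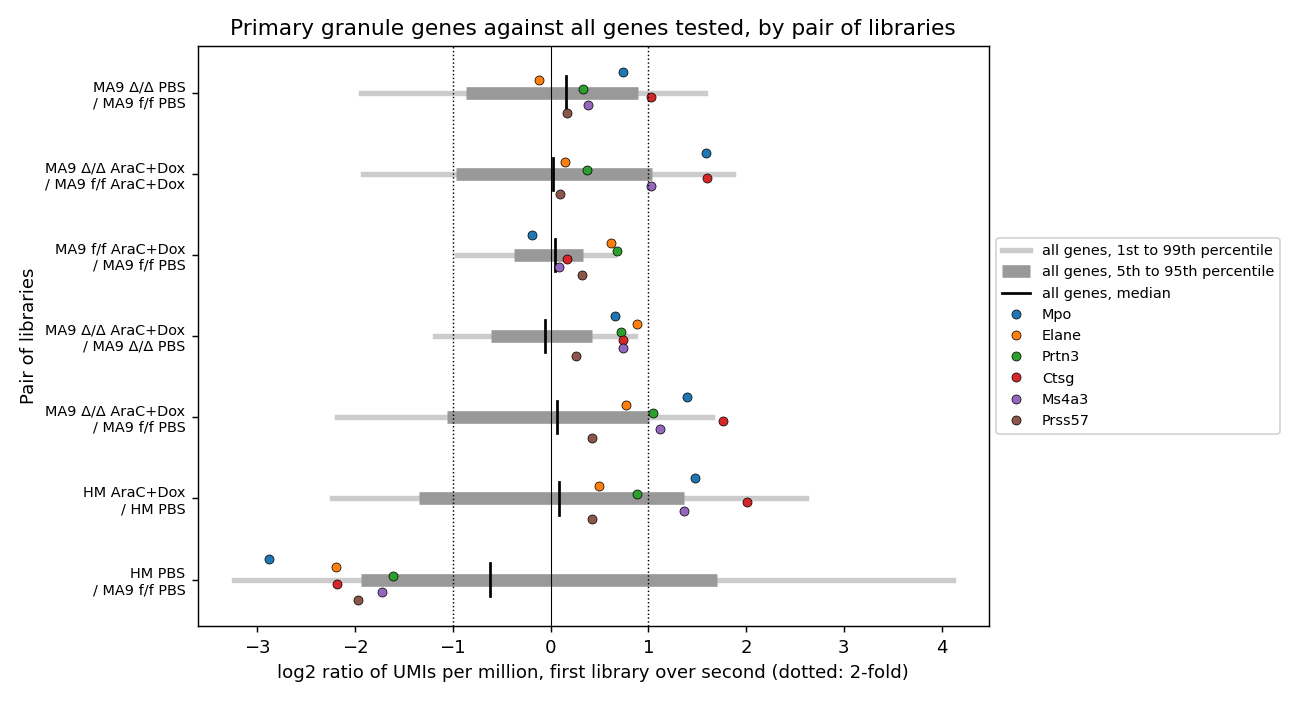
Log2 ratio of CPM for the 6 primary granule genes (coloured points) in 7 pairs of libraries as labelled, over the percentile ranges and median of all genes that reached 20 CPM in 1 of the 2 libraries; dotted lines mark 2-fold. In the pair MA9 Δ/Δ and f/f under AraC + Dox, Ctsg (1.60) and Mpo (1.59) lie above the 95th percentile of all genes (1.04), whereas Elane (0.15) and Prss57 (0.10) lie near its median (0.024).

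Genes of the later granules were lower in the MA9 libraries labelled Δ/Δ. Of 10 secondary and tertiary granule genes, 10 were at least 2-fold lower in MA9 Δ/Δ PBS than in MA9 f/f PBS (median log2 ratio -2.80, beside 3.88% of all genes lower), and 10 of 10 under AraC + Dox (median -2.21, beside 4.71%). In MA9 Δ/Δ AraC + Dox over MA9 f/f PBS, 10 of 10 were again lower (median -3.06, beside 5.56% of genes). In MA9 f/f AraC + Dox over MA9 f/f PBS, 3 of 10 were lower (beside 0.919%). In MA9 Δ/Δ AraC + Dox over MA9 Δ/Δ PBS, where all 6 members had positive log2 ratios, 8 later granule genes were compared and split into 4 positive and 4 negative (median -0.010). There 1 was 2-fold lower (beside 1.53%), and Fcnb (0.85), Cd177 (0.73), Ngp (0.57) and Lcn2 (0.36) were positive. In HM AraC + Dox over HM PBS, 1 of 10 was lower (beside 10.6%), and in HM PBS over MA9 f/f PBS, 4 of 10 were higher (beside 9.06%) and 1 lower. Camp, the cathelicidin precursor, was at 899 CPM in MA9 Δ/Δ AraC + Dox, against 18681 in MA9 f/f AraC + Dox. Under PBS it was at 1171 CPM in MA9 Δ/Δ, against 16671 in MA9 f/f. Ltf (lactoferrin), Ngp (a neutrophil granule protein) and Chil3 (a chitinase-like protein) were also lower in both pairs, with log2 ratios between -2.62 and -3.77. Of 10 cell cycle genes, 0 were at least 2-fold apart in any pair of MA9 libraries. Their median log2 ratio of MA9 Δ/Δ over MA9 f/f was -0.050 under PBS and 0.040 under AraC + Dox. It was 0.28 in MA9 Δ/Δ AraC + Dox over MA9 f/f PBS (10 of 10 positive), beside 0.068 over all genes, and 0.29 in MA9 Δ/Δ AraC + Dox over MA9 Δ/Δ PBS (9 of 10 positive), beside -0.055. In HM AraC + Dox over HM PBS it was 0.56 (8 of 10 positive), beside 0.088. There Mki67 went the other way, at 168 CPM against 456 (log2 ratio -1.44), and Top2a had -0.09.

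Partners of the azurophil granule were split. Calr (calreticulin), a chaperone that binds newly made myeloperoxidase, was at 2091 CPM in MA9 Δ/Δ AraC + Dox, against 836 in MA9 f/f AraC + Dox (log2 ratio 1.32), and at 2036 in MA9 Δ/Δ PBS, against 926 in MA9 f/f PBS (1.14). Canx (calnexin, a chaperone of the same family) had 0.81 and 0.52 in these pairs. Lyz2 (lysozyme, which is found in primary and later granules) had -2.70 and -2.58. Ctsc, which encodes cathepsin C, the protease that activates the granule serine proteases, had 0.19 and 0.84. Srgn (serglycin, the proteoglycan that packs granule proteases) had 0.39 and 0.47, and Serpinb1a (an inhibitor of these proteases) had -0.08 and 0.44. Of 14 partners, 13 were compared in each of these pairs, and 1 (Calr) was at least 2-fold higher and 2, including Lyz2, were lower in each. Over all genes, 5.48% were higher and 4.71% lower under AraC + Dox, and 3.81% and 3.88% under PBS. The other, Cst7 (a cystatin), was below 20 CPM in all 4 MA9 libraries. Ctsc was past 2-fold in another pair, MA9 f/f AraC + Dox over MA9 f/f PBS, at 71.9 CPM against 32.6 (log2 ratio 1.14). Cd63, Hexa, Ctsd, Slpi and Ap3b1 lay between -0.94 and 0.70 in both pairs.

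Among 10 myeloid transcription factors, Cebpe, which drives the secondary granule programme, had a log2 ratio of -1.59 between the MA9 libraries labelled Δ/Δ and f/f under AraC + Dox and of -1.67 under PBS. Cebpd had -1.23 and -1.04. These were the 2 of 10 factors at least 2-fold lower in both pairs (beside 4.71% and 3.88% of genes), and none was 2-fold higher. Myb (0.15 and 0.16), Runx1 (0.03 and -0.01), Irf8 (0.02 and 0.27), Spi1 (-0.57 and -0.33), Cebpa (-0.32 and -0.36), Cebpb (-0.67 and -0.60), Gfi1 (-0.36 and -0.93) and Klf4 (-0.19 and -0.87) stayed short of 2-fold. In HM AraC + Dox over HM PBS, Cst7 (1.62), Calr (1.13) and the factor Cebpb (1.07) were at least 2-fold higher. In HM PBS over MA9 f/f PBS, Gfi1 (-3.74), Myb (-2.42), Cebpe (-1.86) and Cebpa (-1.10) were at least 2-fold lower. Of 8 haem synthesis genes, 4 were compared in that pair and 3 were lower. In the same pair 30.4% of all genes were lower, and the median over all genes was -0.62. Alas1, the first enzyme of the pathway that supplies myeloperoxidase with haem, stood between 250 and 293 CPM in the 4 MA9 libraries and at 45.6 CPM in HM AraC + Dox and 88.4 CPM in HM PBS.

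Cells were then divided by gates of cell type markers, none of which is a member. A cell opened a gate with UMIs of at least 3 distinct markers, such as Cd34, Flt3 and Kit for the progenitor gate. In each MA9 library the summed level of the 6 genes was highest in cells that opened no gate or in the progenitor gate, among gates of at least 50 cells. Cells that opened no gate were at 32731 CPM in MA9 Δ/Δ AraC + Dox, 25119 in MA9 f/f AraC + Dox, 20382 in MA9 Δ/Δ PBS and 19548.5 in MA9 f/f PBS. Progenitor-gated cells were at 27916, 27142, 13086 and 16677 CPM in the same order. Immature-neutrophil-gated cells ranged more widely, at 22021, 9322, 15486.5 and 5629 CPM, and were lower in the libraries labelled f/f. Monocyte-gated cells were at 12308, 9216, 9918 and 6004 CPM. Both neutrophil gates rest on markers that include secondary and tertiary granule genes, and those genes differ between the libraries, so gate sizes are not compared.

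Mpo and Ctsg were higher in the progenitor gate than in the immature neutrophil gate in all 4 MA9 libraries, with mean log2 ratios of progenitor over immature neutrophil cells of 1.55 ± 0.98 for Mpo and 1.99 ± 1.20 for Ctsg (SD, n = 4 libraries). The others did not share this: Elane had 0.21 ± 1.11 and was higher in the progenitor gate in 2 of 4 libraries, Prss57 had 0.15 ± 0.54 (2 of 4), Ms4a3 had 0.28 ± 0.60 (3 of 4) and Prtn3 had 0.65 ± 0.92 (3 of 4). The two-sided exact sign-flip permutation test over the 4 libraries gave p = 0.125 for Mpo and for Ctsg, the smallest value it can give, with adjusted p = 0.375 over the 6 genes. This comparison of gates was chosen after seeing the data. In MA9 f/f PBS, for example, Mpo was at 3654.5 CPM in progenitor-gated cells, against 645 in immature-neutrophil-gated cells, while Elane was at 4386 and 2362 CPM in the same gates. In MA9 Δ/Δ PBS, Elane was the other way round, at 2570.3 CPM in progenitor-gated cells, against 5788 in immature-neutrophil-gated cells. Elane took 24.7%, 36.5%, 19.6% and 26.3% of the members' UMIs in the progenitor gates of MA9 Δ/Δ AraC + Dox, f/f AraC + Dox, Δ/Δ PBS and f/f PBS, and 35.3%, 43.5%, 37.4% and 42.0% in their immature neutrophil gates.

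In mature-neutrophil-gated cells the members were lower than in progenitor-gated cells in all 3 MA9 libraries with at least 50 cells in both gates. The mean log2 ratio of progenitor over mature neutrophil cells lay between 2.59 (Prss57) and 3.86 (Elane). With doublets kept, the range was 2.17 (Elane) to 2.64 (Ms4a3), and with cells weighted equally 3.48 (Prss57) to 4.85 (Elane). The exact sign-flip permutation test cannot go below p = 0.25 with 3 libraries, and gave that value for each gene. Mature-neutrophil-gated cells had 8353 summed CPM in MA9 Δ/Δ PBS, where the gate held 52 cells, and between 179 and 2119.5 CPM in the other libraries. A single cell held 89.1% (MA9 f/f AraC + Dox), 52.9% (MA9 Δ/Δ PBS) and 81.6% (MA9 f/f PBS) of the members' UMIs in this gate.

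Within gates, the differences between libraries labelled Δ/Δ and f/f were not shared evenly. Under PBS, 5 of 6 genes were at least 2-fold higher in immature-neutrophil-gated cells of MA9 Δ/Δ than of MA9 f/f (median log2 ratio 1.39), where 3.74% of genes were. In monocyte-gated cells 3 were (median 0.98), where 1.9% of genes were. In progenitor-gated cells all 6 had negative log2 ratios, from -0.77 for Elane to -0.14 for Mpo and for Ctsg, and 0 were 2-fold higher, where 1.19% of genes were. Under AraC + Dox, the count was 4 of 6 in immature-neutrophil-gated cells (median 1.07, beside 4.51% of genes), 2 in monocyte-gated cells (median 0.77, beside 4.59%) and 0 in progenitor-gated cells (median 0.13, beside 4.41%). That progenitor gate held 466 cells in MA9 Δ/Δ and 65 in MA9 f/f. Progenitor-gated cells leave out those that also opened the monocyte gate. In the latter, log2 ratios ran from -0.26 to 0.57 under PBS and from -0.73 to 0.91 under AraC + Dox. In cells of no gate they ran from -0.17 to 0.44 under PBS and from -0.13 to 1.21 under AraC + Dox. In mature-neutrophil-gated cells under PBS they ran from 0.92 to 6.47 (median 3.26), with 52 cells in MA9 Δ/Δ and 127 in MA9 f/f. A single cell held 52.9% and 81.6% of the members' UMIs in these 2 gates, so their ratios rest on few cells. Immature-neutrophil-gated cells under AraC + Dox had 3750 CPM of Mpo in MA9 Δ/Δ, against 691 in MA9 f/f. In the same cells Ctsg was at 2486 CPM in MA9 Δ/Δ, against 578 in MA9 f/f. Median depths of these cells were 12940.5 UMIs in MA9 Δ/Δ and 8377 UMIs in MA9 f/f. The immature neutrophil gate rests on later granule genes, which were lower in the libraries labelled Δ/Δ. It may therefore hold unlike cells in the libraries compared, as with 651 cells in MA9 Δ/Δ PBS and 3906 in MA9 f/f PBS.

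**Figure D3:**
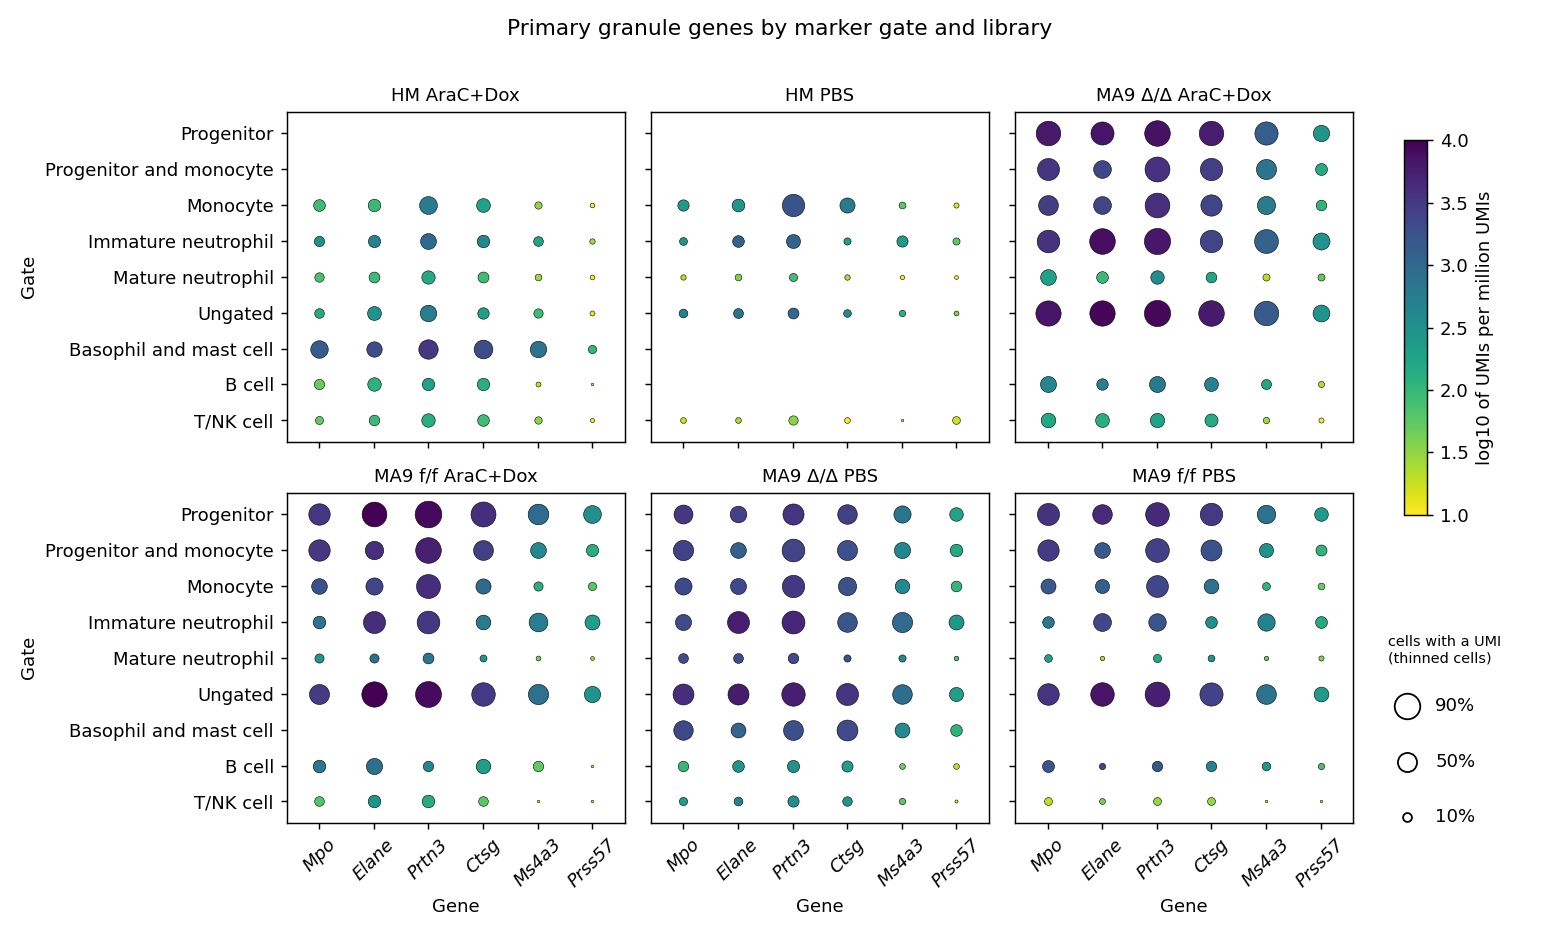
Level (colour, log10 of CPM) and share of cells with at least 1 UMI after thinning to 2000 UMIs (dot area) of the 6 genes, by marker gate and library as labelled; gates with under 20 cells are blank. In 3 MA9 libraries the summed level is highest in cells of no gate and in MA9 f/f AraC + Dox in progenitor-gated cells (27142 CPM), and B and T/NK cells hold lower levels than those cells.

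The mix of the 6 genes also differed by gate. Prtn3 took 58.1% of the members' UMIs in monocyte-gated cells of HM AraC + Dox and 60.2% in those of HM PBS, and between 31.7% and 43.4% in those of the MA9 libraries. In the HM monocyte-gated cells Elane took 9.92% (AraC + Dox) and 9.25% (PBS), its lowest shares among the gates read in those libraries. Ms4a3 took 1.42% in monocyte-gated cells of MA9 f/f AraC + Dox and 1.86% in those of MA9 f/f PBS, against 5.80% and 8.02% in their immature neutrophil gates. Over all kept cells, Mpo and Ctsg took 21.8% and 18.3% of the members' UMIs in MA9 Δ/Δ AraC + Dox, against 11.8% and 9.76% in MA9 f/f AraC + Dox.

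**Figure D4:**
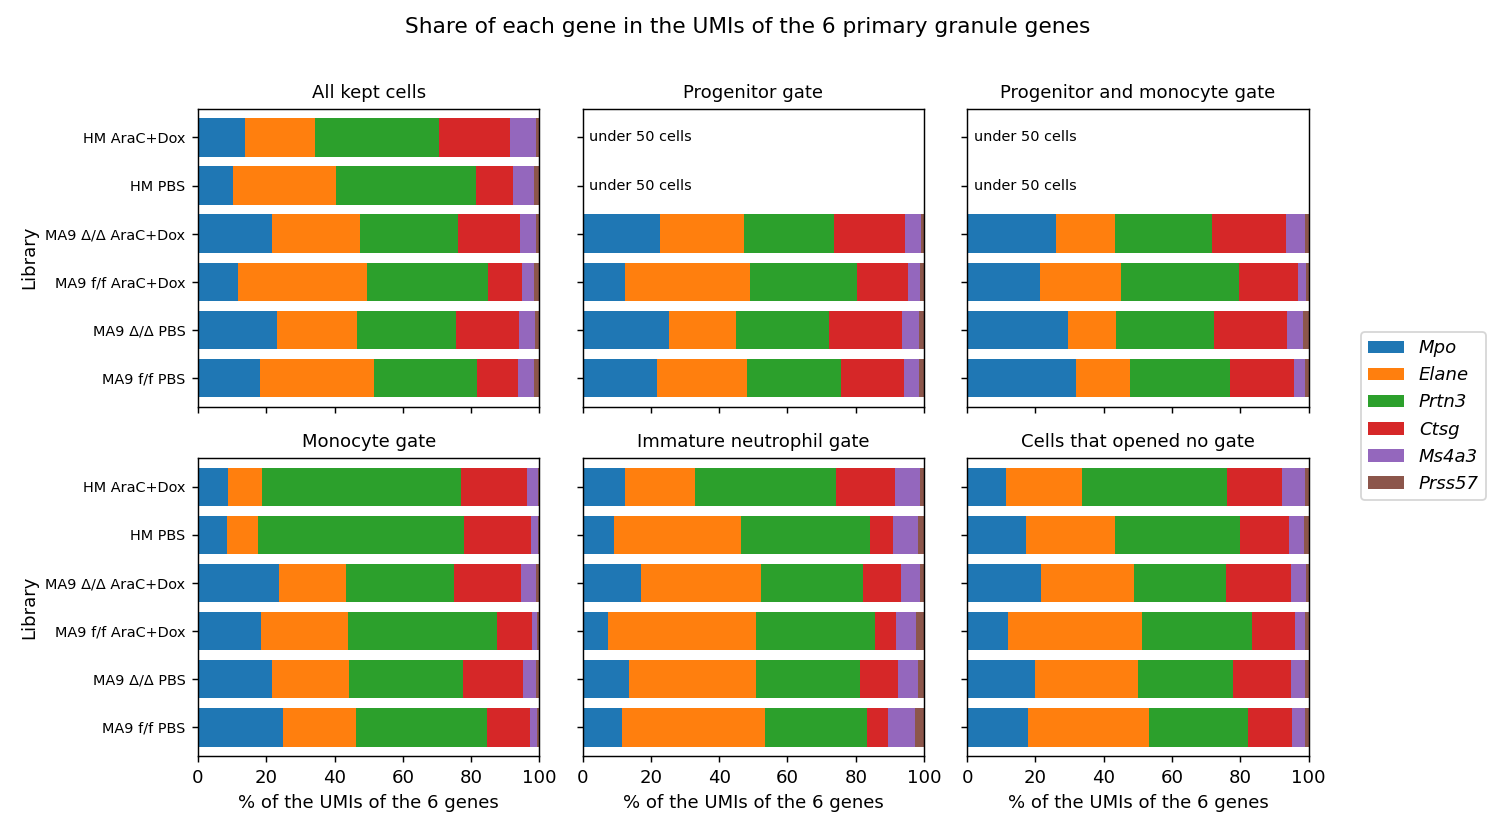
Share of each gene in the UMIs of the 6 primary granule genes, for all kept cells and for 5 sets of gated cells in each library as labelled; gates with under 50 cells are marked. Prtn3 takes 58.1% and 60.2% in the monocyte gates of the HM libraries, and Mpo and Ctsg take less in the immature neutrophil gates than in the progenitor gates of the MA9 libraries.

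The HM libraries differed from the MA9 libraries in how few cells carried the members. The 10% of cells with the most member UMIs held 93.7% of them in HM AraC + Dox and 93.8% in HM PBS, against 39.1% to 57.2% in the 4 MA9 libraries. Cells with over 1% of their UMIs from the 6 genes (100 per 10000) made up 3.36% of cells in HM AraC + Dox and 1.83% in HM PBS. In MA9 they made up 43.9% (Δ/Δ AraC + Dox), 35.8% (f/f AraC + Dox), 27.3% (Δ/Δ PBS) and 24.5% (f/f PBS). In HM PBS, 36 of these 50 cells opened the immature neutrophil gate. In HM AraC + Dox, 66 of the 155 cells opened gates of more than 1 cell type and 51 opened the basophil and mast cell gate. The 155 cells had a median of 58742 UMIs, against 6597.5 in the other cells of that library. Called doublets had been removed, but the automatic call marked only 7 cells of that library. The threshold used in its place removed 67 of 4676 cells. The part of any doublets that remained was not tested.

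**Figure D5:**
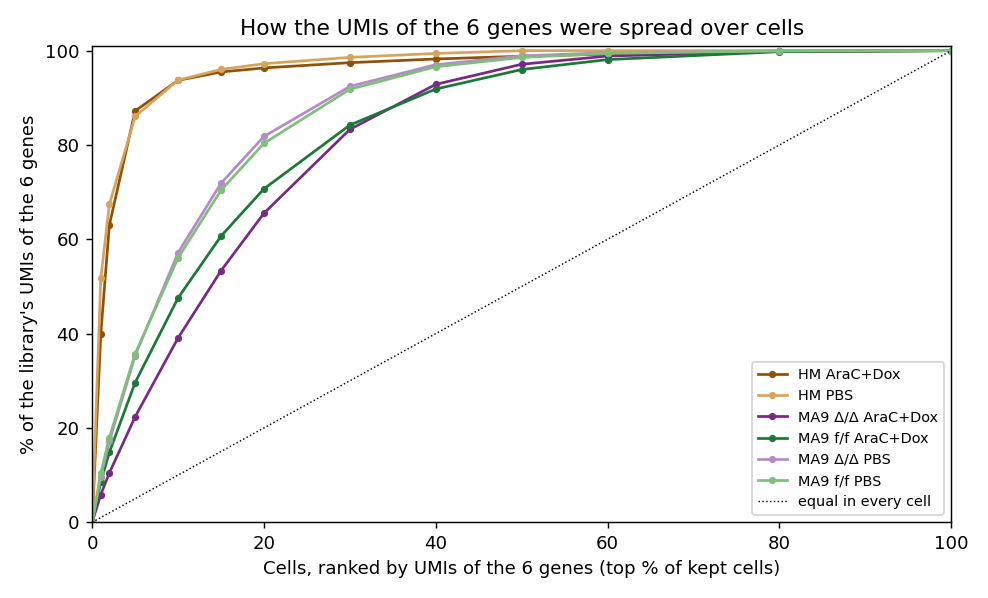
Share of each library's UMIs of the 6 genes (vertical axis, %) held by the top cells when cells are ranked by those UMIs (horizontal axis, % of kept cells); the dotted line is an equal spread. The top 5% of cells hold 87.2% in HM AraC + Dox and 86.0% in HM PBS, against 22.3% to 35.7% in the MA9 libraries.

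For HM, the library of AraC + Dox had 3 of 6 genes at least 2-fold higher than the library of PBS, where 12.8% of 5099 genes were. Ctsg had a log2 ratio of 2.01 (interval 1.96 to 2.06), Mpo 1.48 (1.42 to 1.53) and Ms4a3 1.36 (1.29 to 1.43), whereas Prtn3 had 0.88, Elane 0.50 and Prss57 0.43. Cells of the basophil and mast cell gate (333 cells) held 32.3% of the members' UMIs in HM AraC + Dox, and 539 cells that opened gates of more than 1 cell type held 47.0%. Without both sets of cells, an alternative chosen after seeing the data, Mpo was at 204 CPM in HM AraC + Dox, against 222 in HM PBS. Ctsg was then at 286 CPM in HM AraC + Dox, against 226 in HM PBS, and no member was at least 2-fold apart (6.24% of genes were higher and 8.29% lower). Elane then had a log2 ratio of -0.95, Prss57 of -0.83, Prtn3 of -0.41, Ms4a3 of -0.16 and Mpo of -0.12. Within monocyte-gated cells, 5 of 6 genes were at least 2-fold lower in HM AraC + Dox than in HM PBS (beside 13.4% of genes), and within cells of no gate 3 of 6 were (beside 10.4%). A single cell held 36.2% of the members' UMIs in the cells of no gate of HM PBS. In mature-neutrophil-gated cells the log2 ratios were positive, from 0.67 to 2.09 (median 1.52), at 444 summed CPM in HM AraC + Dox, against 179 in HM PBS. T/NK-gated cells, which should lack these transcripts, were at 401 CPM in HM AraC + Dox, against 102 in HM PBS (42 cells). How much of the difference in mature-neutrophil-gated cells is such background was not tested. Immature-neutrophil-gated cells were mixed, from -1.28 to 0.93 (median -0.33). In HM PBS the basophil and mast cell gate held 2 cells and mixed gates held 15, with 0.018% and 2.13% of the members' UMIs. Leaving these sets out therefore lowers the ratios of AraC + Dox over PBS by construction. The mixed set of HM AraC + Dox also includes 107 cells that opened the T/NK and immature neutrophil gates.

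The basophil and mast cell gate of HM AraC + Dox rests on 3 of 7 markers, so their enrichment in it follows from the rule and is no check of the cells' identity. Hdc was found in 93.7% of its cells, Mcpt8 in 89.5%, Prss34 in 86.5% and Cpa3 in 41.4%. The other markers were each found in fewer gated cells, Cyp11a1 in 31.8%, Fcer1a in 21.9% and Ms4a2 in 19.5%. Outside the gate, Hdc was found in 59.2% of cells, Prss34 in 23.1% and Mcpt8 in 16.9%. Mcpt8, a basophil protease gene whose nearest end lies 14.6 kb from Ctsg, was at 264 CPM in HM AraC + Dox, against 1.61 in HM PBS. The members stood at 9649 summed CPM in this gate, with Prtn3 at 3325 CPM, Elane at 2072, Ctsg at 2042 and Mpo at 1379. The gated cells had a median of 12076 UMIs, and a gate that counts distinct markers opens more readily in deep cells.

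Between the models, all 6 genes were at least 2-fold lower in HM PBS than in MA9 f/f PBS, from 3.05-fold for Prtn3 to 7.38-fold for Mpo, beside 30.4% of 5982 genes. Scaling by the median of gene ratios raises the log2 ratios of this pair by 0.45, and all 6 remained past 2-fold, with Prtn3 closest at -1.16. The models also differ in the reference list and barcode format of their files, so model and processing cannot be told apart. Within the gates both libraries held, all 6 genes were at least 2-fold lower in cells of no gate of HM PBS (beside 48.7% of genes), and 3 were in immature-neutrophil-gated cells (beside 20.7%). In monocyte-gated cells the log2 ratios ran from -2.63 to -0.42. In mature-neutrophil-gated cells they ran from -3.53 to 0.72, where a single cell held 81.6% of the members' UMIs in MA9 f/f PBS.

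UMIs of the members also appeared in cells that should lack them. B-gated and T/NK-gated cells together had 410 summed CPM in HM AraC + Dox (776 cells), 102 in HM PBS (42 cells), 1374.5 in MA9 Δ/Δ AraC + Dox (619 cells), 1025 in MA9 f/f AraC + Dox (87 cells), 1199.7 in MA9 Δ/Δ PBS (721 cells) and 2219.7 in MA9 f/f PBS (97 cells). These were 4.70% to 24.5% of the level of their own library. In MA9 f/f PBS, 2 cells held 94.6% of the lymphoid UMIs, and without them the level was 119 CPM. In HM AraC + Dox the top 2 cells held 1.15%, and the UMIs were spread thinly, with at most 9 in a cell. There Prtn3 took 32.9% of the members' UMIs in lymphoid cells (interval 30.5% to 35.5%), against 36.4% in all cells, and Mpo 12.8%, against 13.7%. The mix differed more in other libraries. In MA9 Δ/Δ PBS, Mpo took 14.2% in lymphoid cells, against 23.1% in all cells, and Elane 33.0%, against 23.4%. In MA9 f/f AraC + Dox, Mpo took 23.4% in lymphoid cells, against 11.8% in all cells, and Prtn3 21.7%, against 35.5%. The top 2 cells held 46.6% of the lymphoid UMIs in MA9 Δ/Δ PBS and 64.2% in MA9 f/f AraC + Dox. The mix in these libraries therefore rests heavily on few cells. Without the top 2 cells the levels were 641 CPM in MA9 Δ/Δ PBS and 367 in MA9 f/f AraC + Dox. In MA9 Δ/Δ AraC + Dox the top 2 cells held 33.0%, and the level without them was 921 CPM. Mature-neutrophil-gated cells of HM AraC + Dox, at 444 summed CPM, stood close to the T/NK-gated cells of that library at 401 CPM.

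This background limits what a share of positive cells can show. After thinning to 2000 UMIs, a UMI of at least 1 member was found in 61.1% of cells in HM AraC + Dox and 33.1% in HM PBS. In the T/NK gate alone it was found in 54.6% of 582 thinned cells (interval 50.5% to 58.7%) and 25.9% of 27 (11.1% to 46.3%). In the MA9 libraries the shares were 94.2% (Δ/Δ AraC + Dox), 85.5% (f/f AraC + Dox), 78.9% (Δ/Δ PBS) and 72.3% (f/f PBS), against 69.0%, 39.4%, 37.4% and 25.5% in their T/NK gates. Those gates held 145, 33, 246 and 51 thinned cells, and the interval was 22.9% to 57.9% in MA9 f/f AraC + Dox. Before thinning the library shares were 88.8%, 47.0%, 96.0%, 92.9%, 85.2% and 82.9% in the order of HM AraC + Dox to MA9 f/f PBS used above. Thinned cells with UMIs of at least 4 of the 6 genes made up 6.32% of cells in HM AraC + Dox and 3.01% in HM PBS, against 29.8% to 58.4% in MA9. For Mpo the thinned share was 16.1% of HM AraC + Dox cells and 8.08% of their T/NK gate, and 66.1% of MA9 Δ/Δ AraC + Dox cells and 29.0% of their T/NK gate. Prss57, the sparsest, was found in 24.9% of thinned cells in MA9 Δ/Δ AraC + Dox and 3.35% in HM PBS.

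Levels in the myeloid gates (progenitor, monocyte and neutrophil), pooled within a library, stood above this background. Mature-neutrophil-gated cells alone were below it in MA9 Δ/Δ AraC + Dox, at 881 summed CPM (35 cells), against 1374.5 in B-gated and T/NK-gated cells. They were also below it in MA9 f/f PBS, at 738 CPM against 2219.7, where the top 2 cells held 94.6% of the lymphoid UMIs. In the other libraries mature-neutrophil-gated cells were higher, though close in HM AraC + Dox (444 against 410). Each of the 6 genes was higher in myeloid-gated than in B-gated and T/NK-gated cells in 5 of 5 libraries, with mean log2 ratios from 2.51 ± 0.88 for Elane to 3.07 ± 0.85 for Prtn3 (SD, n = 5). The two-sided exact sign-flip permutation test gave p = 0.0625 for each, the smallest value that 5 libraries allow, and adjusted p = 0.0625. HM PBS was left out for its 42 lymphoid cells. Cells that opened a B or T/NK gate together with a progenitor, monocyte or neutrophil gate had been set aside as mixed. The low level in the lymphoid gates follows partly from that rule, so the direction is no independent check. With 1 marker fewer per gate, Elane was higher in 4 of 5 libraries (lowest log2 ratio -0.031, p = 0.125 by the same exact test).

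Across cells within a library the members varied together, though not equally. The correlation of log2(UMIs per 10000 + 1) was highest on average for Elane with Prtn3 (mean Pearson r over 6 libraries 0.71), Prtn3 with Ctsg (0.70) and Mpo with Ctsg (0.69), and low for Mpo with Prss57 (0.42). The median over the 15 pairs was 0.75 in MA9 Δ/Δ AraC + Dox and 0.50 in MA9 f/f AraC + Dox. In MA9 f/f AraC + Dox, Mpo had r = 0.23 with Prss57 and 0.36 with Ms4a3, while Elane had 0.78 with Prtn3. Cells of 1 library share their depth and free RNA, so these values are descriptions without a test.

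The genes most like the members were ranked by the mean r with their sum over the 6 libraries, among 5247 genes. Etfb, a subunit of the mitochondrial electron transfer flavoprotein, came first (0.60, range 0.45 to 0.68), then Gstm1, a glutathione S-transferase (0.59), Mt1, a metallothionein (0.55), and Calr (0.52). Others among the top 15 were Rps2, Ppia, Serbp1, Ptma, Ran, Rpl14, Nkg7, Dtymk and Eif5a, between 0.51 and 0.47. Rps2 and Rpl14 encode ribosomal proteins. The lowest were Cd52 (-0.52), S100a6 (-0.47), Lsp1 (-0.46), Slfn2 (-0.42) and Btg1 (-0.38). Among the listed factors Myb had 0.43 and Gfi1 0.29, while Spi1 had -0.01 and Klf4 -0.12. Serpinb1a had 0.46 and Alas1 0.41, Lyz2 had -0.30, and the secondary and tertiary granule genes ran from -0.36 (Mmp9) to 0.27 (Fcnb).

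In the MA9 libraries, cells with over 1% of UMIs from the members had fewer UMIs of the 10 secondary and tertiary granule genes than other cells. These genes were at 8881 CPM in such cells of MA9 f/f PBS, against 48677 in its other cells. In MA9 f/f AraC + Dox they were at 13136 CPM, against 48228. In MA9 Δ/Δ AraC + Dox they were at 2523 CPM, against 4848, and in MA9 Δ/Δ PBS at 2538 CPM, against 3808. Stem and progenitor markers were also lower in such cells of MA9 Δ/Δ AraC + Dox, at 142 CPM against 352, and of MA9 Δ/Δ PBS, at 309.95 CPM against 746. In the libraries labelled f/f they were at 137 CPM against 128 (AraC + Dox) and 187 against 199 (PBS).

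Chromosome neighbours did not all follow the members. Within 100 kb of a member lie 48 protein-coding genes, of which 18 reached 20 CPM in a library, including members next to each other. Near Elane, Prtn3 and Prss57 these are Palm, Ptbp1, Plppr3, Med16, R3hdm4, Arid3a, Wdr18, Tmem259, Cdc34, Bsg and Rnf126. R3hdm4 was at 59.9 CPM in MA9 Δ/Δ AraC + Dox, against 143 in MA9 f/f AraC + Dox, and Arid3a at 64.4 CPM, against 124. Plppr3, which overlaps the annotated end of Prtn3 so that reads of the overlap cannot be assigned with certainty, was at 70.9 CPM, against 38.2 in the same pair. Tspoap1, 7.65 kb from Mpo, was at 58.7 CPM in MA9 Δ/Δ AraC + Dox, against 25.9 in MA9 f/f AraC + Dox, and Supt4a at 109.8 and 140.0 CPM. Ms4a6b, near Ms4a3, was at 92.1 CPM in MA9 Δ/Δ AraC + Dox, against 60.4 in MA9 f/f AraC + Dox.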

How the data were processed

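Droplet 3′ libraries of 6 mouse leukaemic marrows, 1 per group, were read from the matrices of UMI counts that the authors deposited. Per the submitters' processing notes, Cell Ranger 3.0.2 and the build mm10 were used. The file headers of the HM matrices name no software, and these list 32285 genes against 31053 in MA9. Barcodes needed 500 genes, and those above 10% mitochondrial UMIs were dropped. Doublets called by Scrublet (scanpy 1.11.5) were removed. Its automatic threshold was used in 3 MA9 libraries, and the mean of those 3, chosen after seeing the data, in the others. UMIs were summed per library or gate and scaled to the total (CPM). A gate opened at 3 distinct markers, and neutrophil markers needed 5 UMIs each. B, T/NK, plasma, erythroid, stromal and megakaryocyte cells that also opened a progenitor, monocyte or neutrophil gate were set aside as mixed. Cells that opened the progenitor and the monocyte gate but no neutrophil gate formed a class of their own. The members are no markers, and the gate rule was settled after marker detection had been seen. Genes that reached 20 CPM in 1 library of a pair formed the background of each pair, and a 2-fold ratio was a rule of size. Gates were compared over libraries by exact sign-flip permutation tests with Benjamini-Hochberg adjustment over 6 genes. Counting intervals are exact (Clopper-Pearson, 95%), and UMI counts carry no error between animals. Shares of cells were thinned to 2000 UMIs. Named genes were the members, partners, factors and neighbours at 20 CPM or more, up to 4 genes of other lists, and the 15 most and 5 least alike genes, and a few genes that this rule names are not reported here. The members and lists were chosen with earlier results of these data known. The ratio and likeness calculations were tested on simulated data. Python 3.11.15, numpy 2.4.6, scipy 1.17.1, pandas 2.3.3 and matplotlib 3.10.9 were used.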

Additional observations from a re-analysis of the deposited data

Results flagged for a closer look

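The log2 ratio of Mpo between libraries of AraC + Dox and of PBS had opposite signs in the 2 labelled MA9 genotypes. It was 0.66 in MA9 Δ/Δ and -0.19 in MA9 f/f, and 1.48 in HM. Elane changed sign between the 2 labelled treatments, with a log2 ratio of MA9 Δ/Δ over MA9 f/f of 0.15 under AraC + Dox and -0.12 under PBS. These values were picked out because the counting intervals of a pair of contrasts lie on opposite sides of 0. With every cell weighted equally the values are 0.03 for Mpo in MA9 f/f and -0.11 for Elane under AraC + Dox. With 1 library per group the differences were not tested.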

How the results depend on the processing

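No paired analysis was possible because each group holds 1 library and the labels carry no replicate numbers; this concerns groups, since gates were paired within libraries. Of the members at least 2-fold higher, the 1 in MA9 Δ/Δ PBS over MA9 f/f PBS became 0 with median-of-ratios scaling, 0 with abundant genes out of the total and 0 with each cell weighted equally. The 4 in MA9 Δ/Δ AraC + Dox over MA9 f/f PBS became 2 with abundant genes out, and 3 with median-of-ratios scaling or equal weights. The 3 in MA9 Δ/Δ over MA9 f/f under AraC + Dox became 2 with abundant genes out or equal weights. The 3 in HM AraC + Dox over HM PBS became 0 without basophil-and-mast and mixed-gate cells, where Mpo (-0.12) and Ms4a3 (-0.16) reversed. Those cells held 32.3% and 47.0% of the members' UMIs in HM AraC + Dox, and 0.018% and 2.13% in HM PBS, so lower ratios follow by construction. The same 3 became 2 with equal weights, and 4 with all barcodes or up to 20% mitochondrial UMIs. Median-of-ratios scaling changed the genes at least 2-fold higher and lower to 157 and 310 in MA9 Δ/Δ PBS over MA9 f/f PBS (234 and 238 by totals), and to 844 and 824 in HM PBS over MA9 f/f PBS (542 and 1816). Genes past 2-fold, in the order Δ/Δ over f/f under PBS, the same under AraC + Dox, AraC + Dox over PBS in f/f, the same in Δ/Δ, Δ/Δ AraC + Dox over f/f PBS, HM AraC + Dox over HM PBS, and HM PBS over MA9 f/f PBS, numbered 472, 617, 75, 138, 646, 1192 and 2358. At 5 CPM they numbered 876, 1051, 198, 322, 1099, 1998 and 3963, and with no filter 5290, 5487, 3412, 4071, 5168, 7222 and 9394. Cells with a UMI of any member, from HM AraC + Dox to MA9 f/f PBS in the order of the report, made up 88.8%, 47.0%, 96.0%, 92.9%, 85.2% and 82.9% without thinning, and 42.7%, 22.6%, 86.7%, 78.2%, 67.3% and 62.1% at 1000 UMIs. With 1 marker more per gate, the progenitor over immature neutrophil ratio reversed for Elane (-0.66), Ms4a3 (-0.075) and Prss57 (-0.21), and the ratio to mature neutrophils could not be fitted, since fewer than 2 libraries had enough cells. Of 42 ratios of members, the sign of 4 turned with each cell weighted equally, including Mpo in MA9 f/f AraC + Dox over PBS (0.03) and Prss57 in HM (-0.15), and of 1 with abundant genes out. None turned with median-of-ratios scaling, other cell filters or doublets kept. The causes were not tested beyond each alternative's own construction. The lymphoid background of HM PBS rests on 12 UMIs of the members in 42 cells.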
